A study of Mus musculus with 8 samples.

Results

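The 8 genes Dnmt1, Dnmt3a, Dnmt3b, Tet1, Tet2, Tet3, Uhrf1 and Mbd2, which write, remove or read DNA methylation, were followed by RNA sequencing of tdTomato-positive mouse brain cells. They were chosen by name, as classic genes of the methylation machinery, from 53507 gene rows, with earlier results of these data known. All 8 were among the 19936 genes that passed the filter on low counts. tdTomato is a red fluorescent protein used to mark cells, and the labels call the marked cells progenitor cells. The labels name neither the promoter or Cre line that drives the reporter nor the mouse strain, and reporter and cassette had 0 rows, so the mark itself was not measured.

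The groups, of 2 libraries each, were P12 hypoxia, P12 normoxia, E15 and E13. P12 hypoxia is postnatal day 12 after 8 days in 10% oxygen, from postnatal day 3 to day 11. P12 normoxia is the same age kept in normal air. E15 and E13 are embryonic days 15 and 13, labelled wt and without exposure. All groups share the tdTomato gate, brain as the tissue and 400 pg of total RNA per library. The labels do not say that replicates came from separate animals, so p-values measure only the spread between these libraries, which may be technical.

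Methylation of cytosine in CpG pairs is placed on unmethylated DNA by the de novo enzymes Dnmt3a and Dnmt3b. After replication it is copied to the new strand by Dnmt1, which Uhrf1 brings to hemimethylated CpG sites. The TET enzymes oxidise methylcytosine, which opens a route to its removal through Tdg and base excision repair, and proteins such as Mbd2 bind methylated CpG and bring chromatin-silencing complexes. In the developing brain, Dnmt1 maintains methylation in dividing precursors, and Dnmt3a acts as cells mature.

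The genes lie apart in the genome (GRCm38, GENCODE M21), and each value is the count of a gene row as deposited. Dnmt1 lies at chr9:20907209-20959888 on the minus strand and Uhrf1 at chr17:56303321-56323486 on the plus strand. Dnmt3b lies at chr2:153649450-153687730 on the plus strand. The TET genes are all on minus strands, Tet1 at chr10:62804570-62908996, Tet2 at chr3:133463679-133545139 and Tet3 at chr6:83362373-83459084. Mbd2 lies on the plus strand of chromosome 18. Their merged exons run from 3214 bases in Mbd2 to 16870 in Tet2, so levels are compared between genes only per exon length.

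Libraries held 36252027 to 47084796 counts in gene rows. Genes reaching 10 counts numbered 12785 and 11695 in P12 hypoxia, 14129 and 16468 in P12 normoxia, 17520 and 17697 at E15 and 18318 and 17890 at E13. Values are CPM, counts per mega-count of library size after TMM scaling, on which 3 counts (the most that a count of 0 leaves room for) are worth 0.0482 to 0.111. Replicates of the P12 groups diverged for many genes. Of the genes with at least 10 CPM in a library of the group, 3088 of 10543 (29.3%) lay under 1 CPM in the other replicate of P12 hypoxia and 1722 of 11517 (14.95%) in P12 normoxia, but 1 of 9490 (0.0105%) at E15 and 4 of 9686 (0.0413%) at E13.

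The marker lists separated the ages. Summed over 6 astrocyte markers, the P12 hypoxia libraries had 10287 and 8239 CPM and the P12 normoxia libraries 7819 and 8738 CPM, against 10.6 to 40.0 CPM in the embryo. The sum of 9 radial glia markers was 6072 and 5251 CPM in P12 hypoxia and 5032 and 4405 CPM in P12 normoxia, against 266 to 358 CPM in the embryo. Its largest part was Slc1a3, a glutamate transporter that astrocytes share. Of the 9, 8 had a positive log2 fold change in hypoxia against the embryo and 7 in normoxia. Vim lay lower at P12 (22.1 to 140 CPM) than at E13 (199 and 208 CPM). Of 8 neuronal markers the sum was 267 and 687 CPM in P12 hypoxia and 502 and 539 CPM in P12 normoxia, against 4144 to 4790 CPM in the embryo. Log2 fold changes against the embryo were negative for 8 of the 8 in hypoxia and for 6 in normoxia. In P12 normoxia Snap25 (85.8 and 87.6 CPM) and Syt1 (130 and 58.6 CPM) lay above all embryonic libraries (33.2 to 65.1 and 0.194 to 14.3 CPM). In hypoxia against normoxia 0 of the 8 were called higher and 2 lower, beside 0.196% and 2.82% of all genes. Snap25 had 0.605 and 0.333 CPM in P12 hypoxia. The sum of 7 oligodendrocyte lineage markers was 1339 and 2549 CPM in P12 hypoxia, 356 and 572 CPM in P12 normoxia and 12.51 to 38.0 CPM in the embryo. Of 5 erythroid markers it was 20.1 and 85.5 CPM at E15 and 2237 and 7293 CPM at E13, and at most 4.31 CPM at P12. Of 6 endothelial and mural markers it was 1278 and 1022 CPM in P12 hypoxia and 2523 and 1979 CPM in P12 normoxia, against 4.90 to 11.4 CPM in the embryo. Nearly all of it was Rgs5, a mural cell gene, at 1021 to 2501 CPM at P12 and 0 in the embryo, while the endothelial Cldn5 and Pecam1 were at 0 in all 4 P12 libraries. Of 6 microglial markers it was 0 and 0.185 CPM in P12 hypoxia, 0.0318 and 21.2 CPM in P12 normoxia and at most 2.64 CPM in the embryo. C1qa was at 0 in all 8 libraries, and the second normoxic library held 651 counts of P2ry12. The part of these differences in the results that follow was not tested, and in bulk RNA fewer cells of a type and less RNA per cell cannot be told apart.

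**Figure D1:**
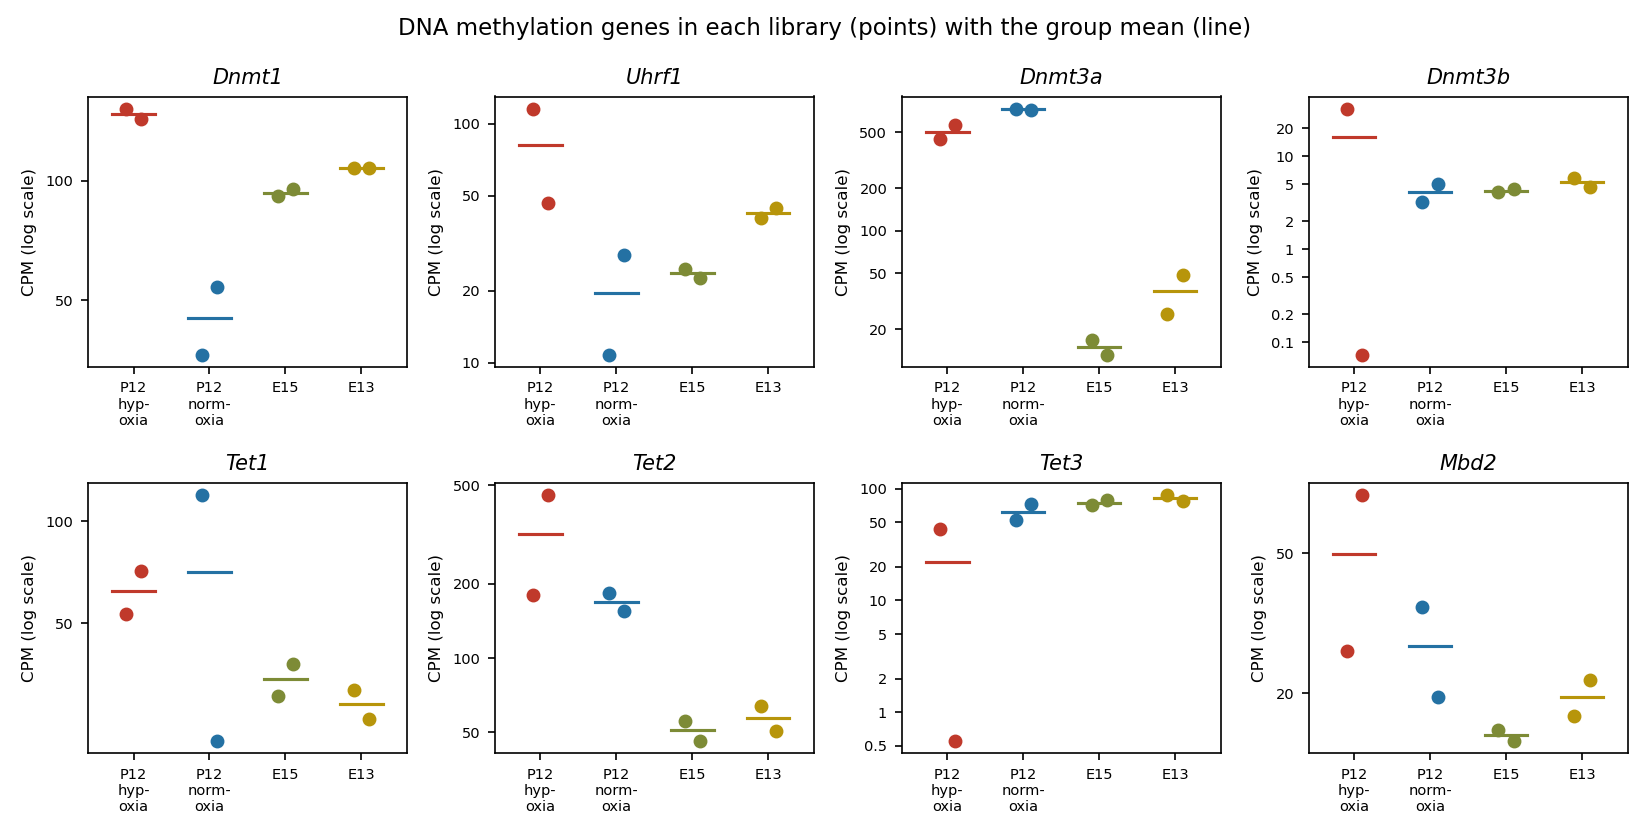
CPM on a log scale (vertical axis) of the 8 genes in each library (points) and the group mean (line), for P12 hypoxia, P12 normoxia, E15 and E13. Dnmt3a and Tet2 lie higher in all 4 P12 libraries than in any embryonic library, Dnmt1 is lowest in P12 normoxia, and Dnmt3b and Tet3 fall far apart between the P12 hypoxia replicates.

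Dnmt3a, the main de novo methyltransferase of the postnatal brain, was far higher at P12 than in the embryo. It measured 445 and 565 CPM in P12 hypoxia and 734 and 724 CPM in P12 normoxia, against 16.7 and 13.2 CPM at E15 and 25.9 and 49.0 CPM at E13. Every P12 library lay above every embryonic library. In the quasi-likelihood test of edgeR with Benjamini-Hochberg adjustment over 19936 genes, Dnmt3a rose 21.3-fold in P12 hypoxia against the mean of E15 and E13 (log2 fold change 4.41, SE 0.31, adjusted p = 0.000665). In P12 normoxia it rose 30.8-fold against the same embryonic libraries (log2 fold change 4.94, SE 0.31, adjusted p = 0.000515, edgeR). Both comparisons share the embryonic libraries, and both calls held in all 18 alternative analyses, with log2 fold changes of 3.47 to 4.67 in hypoxia and 4.11 to 5.20 in normoxia.

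Of the 8 genes, 2 rose and 0 fell in P12 normoxia against the embryo, and 2 rose and 0 fell in P12 hypoxia against the embryo. Over all genes tested, 26.1% were called in hypoxia (13.2% higher and 12.9% lower) and 17.8% in normoxia (12.1% higher and 5.68% lower). Called genes numbered 2630 higher and 2578 lower in hypoxia and 2408 higher and 1133 lower in normoxia. Under scaling by library totals they numbered 1646 and 3704 in hypoxia and 1699 and 2099 in normoxia, and the median log2 fold change of all genes was -1.32 and -0.85. The called pair was Dnmt3a and Tet2 in both comparisons. Their groups did not overlap either, and the same was true of other genes of the 8. In hypoxia against the embryo 6 of the 8 were higher and 1 was lower without overlap, beside 21.3% and 36.3% of all genes (57.6% in either direction). In normoxia 2 were higher and 1 was lower, beside 27.3% and 32.1% (59.4%). These counts rest on the scaling: with library totals, 2 were higher (Dnmt3a and Tet2) and 2 lower (Dnmt1 and Tet3) in hypoxia, and 2 were higher (Dnmt3a and Tet2) and 4 lower (Dnmt1, Dnmt3b, Tet3 and Uhrf1) in normoxia. The median log2 fold change of the 8 was 1.45 in hypoxia, beside -0.43 over all genes, and 0.24 in normoxia, beside -0.04.

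Between the P12 groups, Dnmt3a was lower in both hypoxic than in both normoxic libraries, at 505 ± 84.9 CPM in hypoxia and 729 ± 6.89 CPM in normoxia (SD, n = 2 each). This log2 fold change, -0.53 (SE 0.35), missed the threshold of the edgeR test (adjusted p = 0.516). The gene lies at chr12:3806007-3914443 on the plus strand (GRCm38), with 18 annotated transcripts and 16642 bases of merged exons, so its level cannot be assigned to the long or the short protein form. Counts of the pseudogene Dnmt3a-ps1 were 0 to 5 per library and those of the antisense gene Dnmt3aos at most 2. Reads of either gene that had been assigned to Dnmt3a would not appear in these counts, so their part in Dnmt3a was not measured.

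Dnmt3b, the de novo enzyme of early embryonic cells, was low throughout and decided by replicate. It measured 32.5 and 0.0740 CPM in P12 hypoxia, 3.27 and 5.05 CPM in P12 normoxia, 4.12 and 4.42 CPM at E15 and 5.90 and 4.65 CPM at E13. The second hypoxic library held 2 counts, fewer than the 3 that a count of 0 leaves room for, while the 6 libraries outside P12 hypoxia stayed between 3.27 and 5.90 CPM. No comparison passed: the log2 fold change of hypoxia against normoxia was 1.97 (SE 1.98, adjusted p = 0.721, edgeR). Without the first hypoxic library it became -5.65 (adjusted p = 0.0277) and without the second 2.998 (adjusted p = 0.0495), both called and opposite in sign, so no direction is given. The range of this adjusted p over all alternatives was 0.0277 to 0.9998. Dnmt3c, a near copy of Dnmt3b, had 91 and 0 counts in hypoxia and 10 to 28 in the other libraries, so it was high and low in the same hypoxic libraries as Dnmt3b. Dnmt3l, the regulatory partner without enzyme activity, had 0 counts in all 8 libraries.

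The balance within the methyltransferase family was read as shares of the counts per exon length, which need no scaling between libraries. Dnmt3a held 49.8% and 63.6% of the 3 enzymes in P12 hypoxia and 88.8% and 84.0% in P12 normoxia, against 7.06% and 5.47% at E15 and 8.98% and 15.96% at E13. Dnmt1 held 38.3% and 36.4% in P12 hypoxia and 9.95% and 14.1% in P12 normoxia, against 87.3% and 88.6% at E15 and 84.3% and 79.1% at E13. Thus Dnmt1 made up most of the family in the embryo and Dnmt3a most of it in P12 normoxia, and P12 hypoxia lay between them. The count of Dnmt3a over that of Dnmt1 was 2.93 and 3.95 in P12 hypoxia and 20.1 and 13.4 in P12 normoxia, against 0.139 to 0.455 in the embryo.

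**Figure D2:**
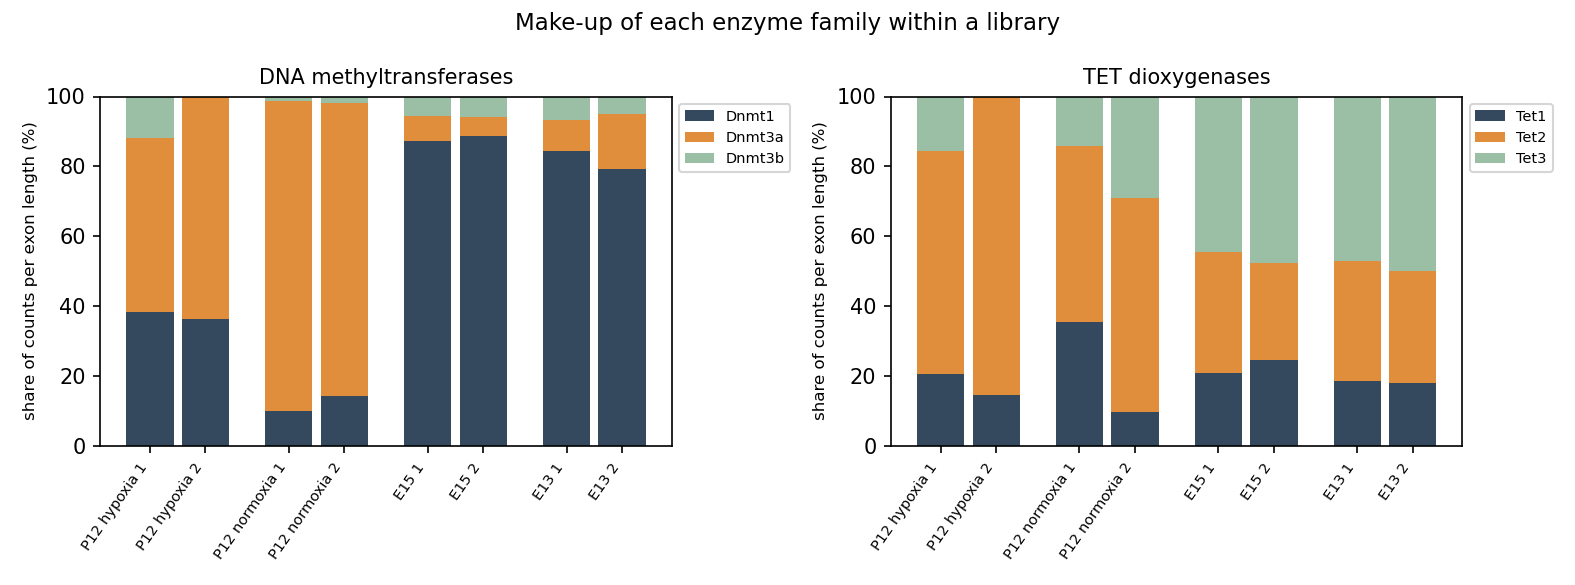
Share of counts per exon length (vertical axis, %) that each gene holds within the DNA methyltransferases (left) and the TET dioxygenases (right), 1 bar per library. Dnmt1 holds 79.1% to 88.6% of the methyltransferases in the embryo and 9.95% to 38.3% at P12, and Tet3 holds 44.5% to 49.9% of the TET genes in the embryo and 0.105% to 29.0% at P12.

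Dnmt1, the maintenance methyltransferase, was lowest in P12 normoxia and highest in P12 hypoxia. It measured 152 and 143 CPM in P12 hypoxia and 36.5 and 53.9 CPM in P12 normoxia, against 91.6 and 95.2 CPM at E15 and 108 and 108 CPM at E13. The 4 groups did not overlap: hypoxia lay above E13, E13 above E15, and E15 above normoxia. Between the P12 groups the fold was 3.27 (log2 fold change 1.71, SE 0.34), and the edgeR test did not pass (adjusted p = 0.0643). The range of that adjusted p over 18 alternatives was 8.39e-14 (DESeq2) to 0.438, and 5 of them passed, among them the fits without the first or the second hypoxic library (0.0226 and 0.0267) and without the second normoxic one (0.0478).

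Against the embryo, Dnmt1 had a log2 fold change of 0.56 in hypoxia (SE 0.28, adjusted p = 0.189, edgeR) and of -1.15 in normoxia (SE 0.30, adjusted p = 0.0502, edgeR). The normoxic value lay just above the threshold, and 10 of 18 alternatives put it below. The sign in hypoxia rests on the scaling. With library totals alone, without TMM, Dnmt1 had 120 and 91.5 CPM in P12 hypoxia and 24.9 and 45.6 CPM in P12 normoxia, against 125 and 126 CPM at E15 and 147 and 149 CPM at E13. The hypoxic log2 fold change was then -0.36, while the median of all genes moved to -1.32. Hypoxia remained above normoxia under both scalings.

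Uhrf1, which binds hemimethylated CpG and recruits Dnmt1, had its highest values in P12 hypoxia as well. It measured 115 and 46.7 CPM in P12 hypoxia and 10.8 and 28.3 CPM in P12 normoxia, against 24.7 and 22.7 CPM at E15 and 40.2 and 44.3 CPM at E13. Under TMM both hypoxic libraries lay above all others, the second only just above E13. With library totals Uhrf1 had 91.1 and 29.9 CPM in P12 hypoxia and 7.41 and 24.0 CPM in P12 normoxia, against 33.7 and 30.01 CPM at E15 and 54.7 and 61.2 CPM at E13, so the second hypoxic library lay below the embryo. Hypoxia exceeded normoxia 4.14-fold (log2 fold change 2.05, SE 0.72), but the edgeR test did not pass (adjusted p = 0.227), and over the alternatives the adjusted p ranged from 0.00444 (DESeq2, the only one to pass) to 0.760. Against the embryo the log2 fold change was 1.36 in hypoxia (SE 0.58, adjusted p = 0.134) and -0.69 in normoxia (SE 0.62, adjusted p = 0.474), neither passing in edgeR, and with library totals the hypoxic value was 0.50. Per unit of Dnmt1, Uhrf1 counts were 0.759 and 0.327 in P12 hypoxia and 0.297 and 0.526 in P12 normoxia, against 0.269 and 0.239 at E15 and 0.373 and 0.412 at E13, so the ratio overlapped between the P12 groups.

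In hypoxia against normoxia, 0 of the 8 genes passed the edgeR test, where 3.02% of all genes did (0.196% higher and 2.82% lower). At an unadjusted p under 0.05, 2 of the 8 passed (Dnmt1 and Uhrf1), beside 18.2% of all genes, and DESeq2 called the same 2, beside 20% of all genes. The groups did not overlap for 4 of the 8, namely Dnmt1 and Uhrf1 higher and Dnmt3a and Tet3 lower, beside 33.2% of all genes (13.1% higher and 20.1% lower). The median log2 fold change of the 8 was 0.89, beside 0 over all genes.

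Sequence from a promoter table is shown for these maintenance genes. They were picked because both were higher in every P12 hypoxia than in every P12 normoxia library. Both are also known targets of E2F factors, which act in cells entering the DNA replication phase. From the RefSeq promoter table (GRCm38.p6), which holds 250 bases before and 50 after each start, 12 windows matched 7 of the 8 genes, all but Mbd2. The E2F-type letters TTTCCCGC, TTTGGCGC, TTTCGCGC and TTTGCCGC were searched on both strands, having been chosen after the counts were seen. They stood in 2 of the 12 windows and in 2.26% of 32851 windows of all genes. Dnmt1 had 3 windows and Uhrf1 2, and those not printed here held 0 matches. Each form holds a CpG pair. Both matching windows held 33 pairs, beside a median of 7 over all, so the shares are no test of enrichment. The starts of the 2 matching windows are those of the promoter table, and where transcripts began in these cells was not measured. Both stretches printed below lie inside the annotated spans of their genes. On the strand of the gene, each also lies downstream of another listed window (Dnmt1 chr9:20952930-20953229, Uhrf1 chr17:56303087-56303386). They may therefore hold transcribed bases, and a place before the listed start need not be upstream of the gene. The 250 bases before these starts are, with the match in capitals (for Dnmt1 the opposite strand of TTTCGCGC, for Uhrf1 TTTCGCGC itself), Dnmt1 on the minus strand at chr9:20952624-20952873 and Uhrf1 on the plus strand at chr17:56304063-56304312:
Dnmt1: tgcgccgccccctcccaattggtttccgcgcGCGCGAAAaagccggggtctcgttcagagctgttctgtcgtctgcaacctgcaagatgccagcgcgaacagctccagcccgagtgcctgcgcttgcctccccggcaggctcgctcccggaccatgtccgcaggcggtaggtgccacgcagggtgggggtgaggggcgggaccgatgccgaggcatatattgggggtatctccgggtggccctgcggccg
Uhrf1: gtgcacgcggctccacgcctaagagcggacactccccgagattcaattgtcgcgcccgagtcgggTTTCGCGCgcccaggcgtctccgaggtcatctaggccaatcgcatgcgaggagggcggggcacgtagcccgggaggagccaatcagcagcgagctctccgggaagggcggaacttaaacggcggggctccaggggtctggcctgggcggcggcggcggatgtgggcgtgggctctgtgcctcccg
The same Dnmt1 window had a further match, TTTGGCGC, after the listed start of that window. These matches describe the letters and do not show binding. Of the other windows, that of Tet2 held the most CpG pairs, 57, and those of Dnmt3a 46, 47 and 18, beside a median of 7 over all windows.

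A list of 9 other genes, of which 8 were tested, held maintenance partners such as Hells, Pcna and Cdca7. It also held Uhrf2 and further relatives of the methyltransferases. In hypoxia against normoxia 0 were called. Hells, Cdca7, Usp7, Trdmt1 and Cdca7l were higher without overlap, as were 13.1% of all genes. But Trdmt1 methylates tRNA, and Cdca7l had at most 3 counts in any P12 library, so this is no count of maintenance genes. Hells, a chromatin remodeller needed for methylation, measured 183 and 62.5 CPM in P12 hypoxia and 55.7 and 24.1 CPM in P12 normoxia, against 10.97 and 14.0 CPM at E15 and 21.8 and 25.8 CPM at E13. It rose in hypoxia against the embryo (log2 fold change 2.83, SE 0.58, adjusted p = 0.0202, edgeR), a call kept in 11 of 18 alternatives. Pcna, the replication clamp that Dnmt1 binds, rose likewise (log2 fold change 1.46, SE 0.36, adjusted p = 0.0342, edgeR, kept in 9 of 18), at 128 and 83.2 CPM in P12 hypoxia and 85.8 and 56.0 CPM in P12 normoxia, against 33.7 to 45.0 CPM in the embryo.

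Other genes of the list were called lower against the embryo, Uhrf2 in hypoxia and Cdca7 in normoxia. Uhrf2, the paralogue of Uhrf1, measured 46.8 and 34.9 CPM in P12 hypoxia and 57.6 and 30.2 CPM in P12 normoxia, against 109 to 129 CPM in the embryo. It fell in hypoxia against the embryo (log2 fold change -1.57, SE 0.41, adjusted p = 0.0379, edgeR, kept in 9 of 18 alternatives). Cdca7, a partner of Hells, measured 20.01 and 73.1 CPM in P12 hypoxia and 0.381 and 0.0326 CPM in P12 normoxia, against 26.2 to 36.5 CPM in the embryo. It fell in normoxia against the embryo (log2 fold change -7.28, SE 1.41, adjusted p = 0.0221, edgeR, kept in 13 of 18). The list as a whole had 2 genes higher and 1 lower in hypoxia against the embryo, beside 13.2% and 12.9% of all genes. In normoxia 0 were higher and 1 was lower, beside 12.1% and 5.68%.

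Dnmt1 and Uhrf1 are known as genes of replicating cells, and 25 S phase genes were set beside them. Their summed level was 2495 and 1541 CPM in P12 hypoxia and 1650 and 1377 CPM in P12 normoxia, against 898 and 821 CPM at E15 and 1322 and 1430 CPM at E13. The second hypoxic and the first normoxic library overlapped in that sum, unlike in Dnmt1 and Uhrf1. In hypoxia against normoxia 16 of the 25 had a positive and 9 a negative log2 fold change, with a median of 0.69. Called were 0 higher and 4 lower (Tk1, Chaf1a, Pola1 and Rrm1), beside 0.196% and 2.82% of all genes. These calls were kept in 11, 11, 10 and 7 of the 18 alternatives. Tk1, a thymidine kinase, had 0.101 and 0.185 CPM in P12 hypoxia and 16.4 and 29.1 CPM in P12 normoxia, against 8.68 to 21.2 CPM in the embryo. Chaf1a, a histone chaperone of replication, had 0.404 and 0.185 CPM in hypoxia and 29.1 and 24.3 CPM in normoxia. Without overlap, 7 of the 25 were higher in hypoxia and 6 lower, beside 13.1% and 20.1% of all genes. Among the 7, named after their values were seen, Rrm2 had 424 and 279 CPM in P12 hypoxia and 58.2 and 139 CPM in P12 normoxia, and Rpa2 had 103 and 119 CPM in hypoxia and 21.7 and 35.4 CPM in normoxia. The S phase list thus held genes on both sides, and its part in the levels of Dnmt1 and Uhrf1 was not tested.

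**Figure D3:**
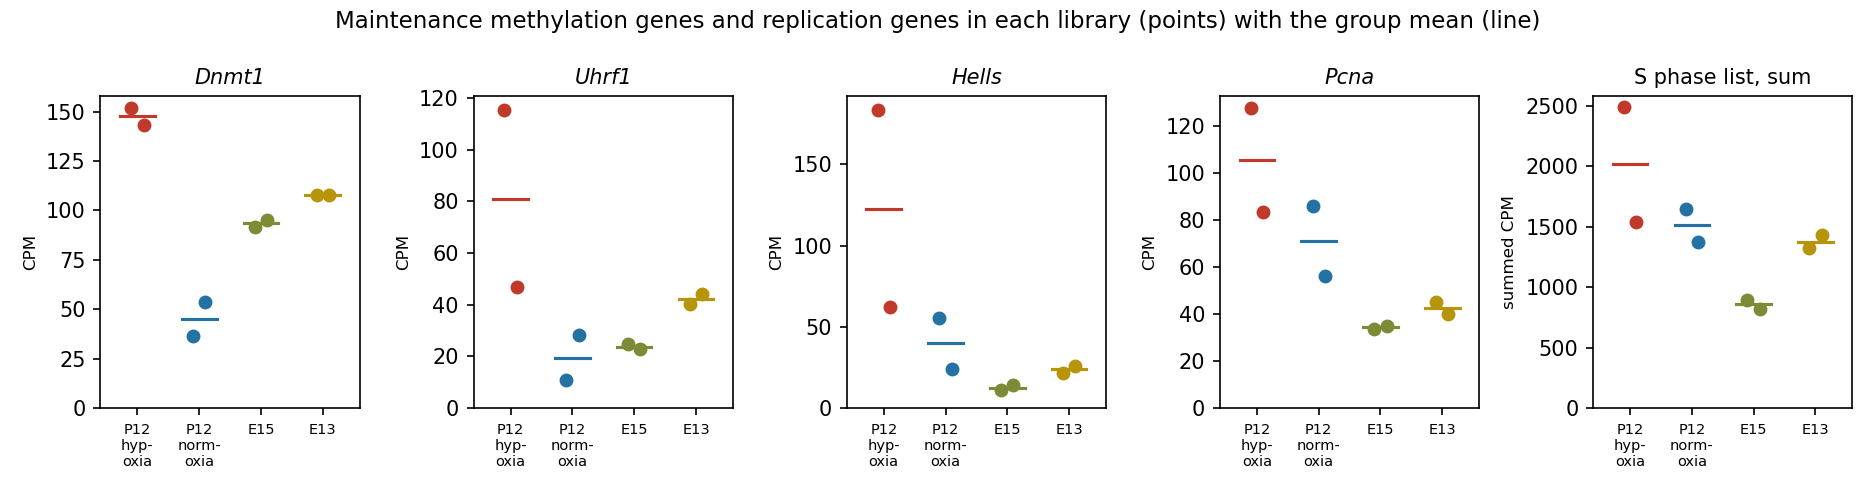
CPM (vertical axis) of Dnmt1, Uhrf1, Hells and Pcna and the summed CPM of 25 S phase genes in each library (points) with the group mean (line). Dnmt1 and Uhrf1 lie higher in both P12 hypoxia libraries than in both P12 normoxia libraries, while the S phase sum of the second hypoxic library, 1541 CPM, lies under the first normoxic one, 1650 CPM.

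Among the erasers, Tet2 rose at P12. Tet2 measured 180 and 457 CPM in P12 hypoxia and 184 and 155 CPM in P12 normoxia, against 55.7 and 46.2 CPM at E15 and 64.2 and 50.7 CPM at E13. All 4 P12 libraries lay above all embryonic ones. The rise was 5.88-fold in hypoxia against the embryo (log2 fold change 2.56, SE 0.40, adjusted p = 0.00840, edgeR) and 3.13-fold in normoxia against the same embryonic libraries (log2 fold change 1.65, SE 0.40, adjusted p = 0.0410, edgeR). The hypoxic call held in 15 of 18 alternatives (adjusted p 2.00e-06 to 0.0574) and the normoxic one in 7 of 18 (0.00843 to 0.198), and leaving out the second E13 or either E15 library ended both. Between the P12 groups the first hypoxic library overlapped with normoxia under TMM, and the log2 fold change, 0.91 (SE 0.48), missed the threshold (adjusted p = 0.382, edgeR). Without the first hypoxic library it was 1.54 (adjusted p = 0.0308, the lowest of a range up to 0.976 over the alternatives).

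Tet3 was the TET enzyme with the highest level per exon length in the embryo, and its P12 hypoxia replicates lay far apart. It measured 43.2 and 0.555 CPM in P12 hypoxia and 51.9 and 72.6 CPM in P12 normoxia, against 70.8 and 79.1 CPM at E15 and 87.5 and 78.0 CPM at E13. The second hypoxic library held 15 counts. Both hypoxic libraries lay below all others, yet no comparison passed: the log2 fold change was -1.51 (SE 1.52, adjusted p = 0.720, edgeR) against normoxia and -1.85 (SE 1.41, adjusted p = 0.360, edgeR) against the embryo. Without the first hypoxic library, these became -6.69 (adjusted p = 0.00686, in a range up to 0.9998 over the alternatives) and -7.14 (adjusted p = 0.00166, in a range up to 0.521). The size of the difference thus depends on which hypoxic library is kept.

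Tet1, the remaining TET enzyme, did not pass in any comparison. It measured 53.1 and 71.0 CPM in P12 hypoxia and 119 and 22.5 CPM in P12 normoxia, against 30.5 and 37.8 CPM at E15 and 31.8 and 26.2 CPM at E13. The normoxic replicates enclosed all other libraries. The log2 fold change of hypoxia against normoxia was -0.19 (SE 0.79, adjusted p = 1, edgeR) and became 1.69 without the first normoxic library. Against the embryo it was 0.98 in hypoxia (SE 0.66, adjusted p = 0.309, edgeR) and 1.17 in normoxia (SE 0.66, adjusted p = 0.266, edgeR), and the normoxic value was -0.62 without the first and 1.92 without the second normoxic library (adjusted p = 0.0385, the 1 alternative of 18 that passed).

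Within the TET family the shares of counts per exon length separated the ages. Tet2 held 63.9% and 85.4% in P12 hypoxia and 50.2% and 61.3% in P12 normoxia, against 34.7% and 27.6% at E15 and 34.3% and 32.1% at E13. Tet3 held 15.5% and 0.105% in P12 hypoxia and 14.3% and 29.0% in P12 normoxia, against 44.5% and 47.8% at E15 and 47.2% and 49.9% at E13. All 4 P12 libraries were therefore above the embryo for Tet2 and below it for Tet3, including the libraries whose levels of Tet3 overlapped.

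All 16 demethylation and base excision repair genes were tested. In hypoxia against the embryo 4 rose and 2 fell, beside 13.2% and 12.9% of all genes. In normoxia 3 rose and 1 fell, beside 12.1% and 5.68%. Tdg, the glycosylase that excises the oxidised bases, fell in both. It measured 19.8 and 24.0 CPM in P12 hypoxia and 53.3 and 42.4 CPM in P12 normoxia, against 126 to 141 CPM in the embryo. The log2 fold change was -2.58 in hypoxia (SE 0.33, adjusted p = 0.00452, edgeR, kept in all 18 alternatives) and -1.46 in normoxia (SE 0.31, adjusted p = 0.0297, edgeR, kept in 10). Hypoxia against normoxia gave -1.13 (SE 0.34, adjusted p = 0.187, edgeR), which did not pass. Gadd45b and Gadd45g, stress genes linked to demethylation, rose in both P12 groups against the mean of E15 and E13, each in 7 to 13 of the 18 alternatives. Gadd45g had 440 and 234 CPM in P12 hypoxia and 516 and 610 CPM in P12 normoxia, against 84.8 and 61.2 CPM at E15 and 299 and 322 CPM at E13, so the second hypoxic library lay below both E13 libraries.

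Mbd2, the reader among the 8, showed a weak rank order with wide replicates. It measured 26.4 and 73.3 CPM in P12 hypoxia and 35.1 and 19.6 CPM in P12 normoxia, against 15.7 and 14.6 CPM at E15 and 17.2 and 21.8 CPM at E13. Under TMM both hypoxic libraries lay above all embryonic ones, and normoxia overlapped with E13. The log2 fold change was 1.53 in hypoxia (SE 0.58, adjusted p = 0.103, edgeR) and 0.67 in normoxia against the embryo (SE 0.59, adjusted p = 0.473, edgeR), and 0.87 between the P12 groups (SE 0.71, adjusted p = 0.617, edgeR). With library totals Mbd2 had 20.9 and 46.8 CPM in P12 hypoxia, which overlapped with 19.3 to 30.1 CPM in the embryo. The log2 fold change against the embryo was then 0.54 in hypoxia and -0.20 in normoxia, so the normoxic direction rests on the scaling.

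Of 8 other genes listed from the families of methyl-CpG readers, 2 rose and 0 fell in each P12 group against the embryo. Over all genes 13.2% rose and 12.9% fell in hypoxia, and 12.1% rose and 5.68% fell in normoxia. Zbtb38, a zinc finger protein that binds methylated CpG, measured 989 and 2209 CPM in P12 hypoxia and 2006 and 1389 CPM in P12 normoxia, against 82.7 and 76.8 CPM at E15 and 44.0 and 37.6 CPM at E13. It rose with log2 fold changes of 4.81 in hypoxia (SE 0.35, adjusted p = 0.000732, edgeR) and 4.89 in normoxia (SE 0.35, adjusted p = 0.000772, edgeR), kept in all 18 alternatives. Zfp57, which guards the methylation of imprinted genes, rose with 2.94 in hypoxia (adjusted p = 0.00383) and 2.29 in normoxia (adjusted p = 0.0113, edgeR), kept in 18 and in 13 alternatives. Mbd1 and Mbd3, of the same domain family as Mbd2, were not called in any comparison.

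Mbd2 acts with the NuRD complex, which joins histone deacetylases and a remodeller. Of its 13 genes, 3 rose and 4 fell in hypoxia against the embryo, beside 13.2% and 12.9% of all genes. In normoxia 1 rose and 4 fell, beside 12.1% and 5.68%. The same 4 fell in both: Hdac2, Mta2, Rbbp4 and Cdk2ap1. The histone-binding subunits went opposite ways. Rbbp4 had 44.9 and 17.9 CPM in P12 hypoxia and 58.3 and 81.2 CPM in P12 normoxia, against 362 to 441 CPM in the embryo, and Rbbp7 had 446 and 413 CPM in hypoxia and 539 and 269 CPM in normoxia, against 89.3 to 112 CPM in the embryo. Rbbp7 rose by log2 2.08 in hypoxia (adjusted p = 0.00670, edgeR) and 1.99 in normoxia (adjusted p = 0.0103, edgeR), kept in 18 and in 14 alternatives.

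Between the embryonic days, 0 of the 8 genes passed, and 0% of all genes did in edgeR. At an unadjusted p under 0.05, 690 genes (3.46%) passed, among them 1 of the 8, Dnmt3a. DESeq2 called 373 genes (1.87%) and limma-voom 935 (4.69%), with 0 of the 8 in either. Of the 8 genes, 5 were lower at E15 without overlap (Dnmt1, Dnmt3a, Dnmt3b, Uhrf1 and Mbd2) and 0 were higher, where 25.8% of all genes were lower and 23.6% higher in this way (49.4% in either direction). Dnmt3a had the largest difference of the 8, at 14.98 ± 2.45 CPM at E15 and 37.4 ± 16.3 CPM at E13 (SD, n = 2 each), with a log2 fold change of -1.32 (SE 0.36, adjusted p = 1, edgeR). Of the 25 S phase genes, 23 had a negative log2 fold change and 19 were lower at E15 without overlap, with a median of -0.67 beside -0.0015 over all genes. The erythroid marker sum also differed between these days, as given above, and its part was not tested.

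**Figure D4:**
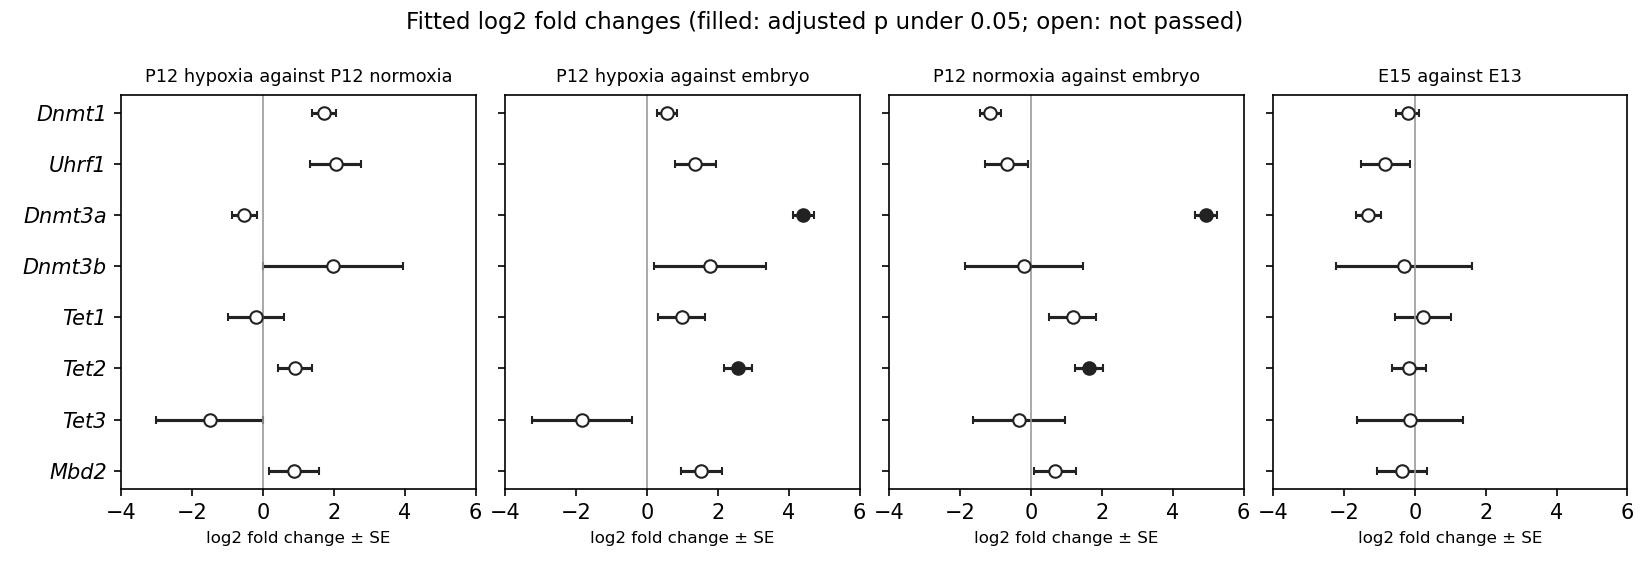
Log2 fold change with its SE (horizontal axis) of each of the 8 genes in the 4 comparisons, from the edgeR fit over all 8 libraries, with filled points where the adjusted p lay under 0.05. Dnmt3a and Tet2 are filled in both comparisons of P12 with the embryo, and all points of the other 2 comparisons are open.

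Per exon length, the order of the genes differed between the groups. In P12 normoxia Dnmt3a led with 44.1 and 43.5 CPM per kilobase, ahead of Tet2 (10.9 and 9.18) and Mbd2 (10.9 and 6.08), which did not differ beyond their spread. In P12 hypoxia Dnmt3a had 26.7 and 34.0, Dnmt1 20.6 and 19.4, Uhrf1 27.1 and 10.98, Tet2 10.7 and 27.1 and Mbd2 8.22 and 22.8 CPM per kilobase, so that Dnmt3a overlapped with Uhrf1 and Tet2. In the embryo Dnmt1 led with 12.4 and 12.9 CPM per kilobase at E15 and 14.6 and 14.6 at E13, ahead of Uhrf1, at 5.79 and 5.33 at E15 and 9.44 and 10.4 at E13. Dnmt3b was the lowest or next to lowest of the 8 in every group except in the first hypoxic library.

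The genes most alike to each over the 8 libraries were ranked by Pearson's r of log2(CPM + 1) among 9671 genes, as a description only, since the libraries of a group share their age and treatment. Dnmt1 was most like Sdf2l1 (r = 0.991), Hmgxb4 (0.990) and Cklf (0.986), and Uhrf1 most like Ddx39 (0.983), Fndc3a (0.972) and Rbl1 (0.956). Dnmt3a was most like Spon1 (0.995), Higd1a (0.994) and Btg2 (0.994), and Tet2 most like Pcbd2 (0.994), Trim33 (0.993) and Aplp2 (0.991). The pattern of Tet3 was shared by Pnn (0.998), which had 57.9 and 0.740 CPM in P12 hypoxia and 84.5 and 86.7 CPM in P12 normoxia, against 110 to 124 CPM in the embryo.

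The supply of the 2 small molecules that these enzymes use, S-adenosylmethionine for the writers and 2-oxoglutarate for the erasers, was covered by 14 genes. In hypoxia against normoxia 0 of the 14 were called. Against the embryo 1 rose (Idh1) and 1 fell (Idh2) in hypoxia, and 0 rose and 1 fell (Idh2) in normoxia. Over all genes 13.2% rose and 12.9% fell in hypoxia, and 12.1% rose and 5.68% fell in normoxia. Idh2, the mitochondrial isocitrate dehydrogenase, had 74.2 and 63.9 CPM in P12 hypoxia and 110 and 54.2 CPM in P12 normoxia, against 188 to 277 CPM in the embryo. Of 6 CXXC proteins, which bind unmethylated CpG, only Kdm2a was called against the embryo, higher in both P12 groups (log2 fold change 2.34 in hypoxia, adjusted p = 0.00533, and 2.17 in normoxia, adjusted p = 0.00879, edgeR). Of 14 germline genes that promoter methylation keeps silent, 6 had 0 counts in all libraries and 2 were tested. Brdt was the called one, higher against the embryo in hypoxia (kept in 14 of 18 alternatives) and in normoxia (kept in 12). It had 44.6 and 9.17 CPM in P12 hypoxia and 34.8 and 10.1 CPM in P12 normoxia, against 0.0176 and 0.257 CPM at E15 and 0 and 0 CPM at E13. Taf7l, the other gene tested, had 4.88 and 0 CPM in P12 hypoxia and 4.06 and 6.06 CPM in P12 normoxia, against 0 CPM in the embryo. Methylation of these promoters was not measured.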

How the data were processed

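Each deposited file gives the raw counts per gene of 1 library, made by the authors with cutadapt, STAR and Subread on GRCm38, per the submitters' processing notes. Versions, annotation, strandedness and the treatment of multi-mapping reads are not given in the sources used here, so antisense and near-identical genes cannot be told apart. Of 55487 rows per file, 1980 named no gene (0.205% to 0.266% of the counts) and were left out. A further 14 rows bore dates as names and were kept unnamed. Coordinates and merged exon lengths came from GENCODE M21 on GRCm38, in which 96.6% of the gene rows matched a symbol.

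Counts were tested with edgeR 4.0.16 in R 4.3.3: TMM scaling, filterByExpr (minimum count 10, minimum total 15), and 1 quasi-likelihood model with the 4 groups as levels, fitted to all 8 libraries with 4 residual degrees of freedom. Tests were two-sided and Benjamini-Hochberg adjusted over all genes tested, with a threshold of 0.05, and each SE was computed from the F statistic. In comparisons with the embryo the 2 embryonic groups were averaged on the log scale. The 18 alternatives included DESeq2 1.42.0, limma-voom (limma 3.58.1), other scalings and filters, a replicate block and leaving out each library. A lone library left in a group is taken to vary like the other groups. Scaling by library totals was added after the data had been seen, since TMM factors were 0.639 to 0.848 at P12 and 1.32 to 1.38 in the embryo. The fit was tested on simulated counts.

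Genes named in the text are the 8, up to 4 called genes of smallest p per list and comparison, close partners (Hells, Mbd1, Mbd3, Uhrf2, Tdg, Pcna), related copies, and the 3 genes of highest Pearson correlation with each of the 8 among genes of at least 10 CPM on average. Mta2, Usp7, Trdmt1, Cdca7l, Rrm2 and Rpa2 were named after their values were seen, and a withheld item is not reported here. The members and lists were chosen with earlier results of these data known. Per-exon-length values divide counts by merged exon length and cannot resolve isoforms. Limits on counts cover counting error alone, as reads here carry no molecular identifiers.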

Additional observations from a re-analysis of the deposited data

Results flagged for a closer look

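In 2 of the 8 genes the P12 groups lay on opposite sides of the embryonic mean. Each hypoxic library was above and each normoxic library below the mean of the embryonic libraries. For Dnmt1 the log2 difference of mean CPM from the embryo was 0.55 in P12 hypoxia and -1.15 in P12 normoxia. For Uhrf1 it was 1.30 in P12 hypoxia and -0.75 in P12 normoxia. Under TMM the normoxic Uhrf1 libraries overlapped with the embryo (10.8 and 28.3 CPM against 22.7 to 44.3 CPM). The difference itself is the comparison of hypoxia with normoxia, which did not pass in edgeR for either gene (adjusted p = 0.0643 for Dnmt1 and 0.227 for Uhrf1). Both patterns rest on TMM scaling: with library totals the Dnmt1 mean lay below the embryo in both P12 groups, and the second hypoxic library had 29.9 CPM of Uhrf1, below all 4 embryonic libraries (30.01 to 61.2 CPM).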

How the results depend on the processing

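Dnmt3a kept its call against the embryo in all 18 alternatives, in both P12 groups. In hypoxia against normoxia, 602 genes were called, and DESeq2 called 3981 (1370 higher, 2611 lower), limma-voom 0, no low-count filter 295, only the compared groups 0 and the replicate block 1. Leaving out 1 library gave 0 to 3018, with 3018 without the first hypoxic library and 0 without any 1 embryonic library. Of the 8 genes, 0 were called there, and DESeq2 called 2, the filter of 5 CPM in 2 libraries 1, and leaving out 1 library 0 to 4 (4 without the first hypoxic library). In normoxia against the embryo, 3541 genes were called, and DESeq2 called 7252, only the compared groups 6731, the replicate block 1705 and leaving out 1 library 928 to 5990. Of the 8 genes, 2 were called there, and the unfiltered fit and the replicate block called 1, and leaving out 1 library 1 to 3. In hypoxia against the embryo, 5208 genes were called, and DESeq2 called 9001, limma-voom 2390 (1976 higher, 414 lower), the replicate block 2868 and leaving out 1 library 1562 to 6836. Of the 8 genes, 2 were called there, and DESeq2 called 5 and leaving out 1 library 1 to 5. In E15 against E13, 0 genes were called, and DESeq2 called 373, limma-voom 935 and only the compared groups 229. The cause of these differences was not tested.

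Signs reversed in 12 single-gene values, none of them called in the main analysis. In hypoxia against normoxia, Dnmt3b was -0.96 in limma-voom and -5.65 to 2.998 with 1 library left out, and Mbd2 was -0.066 (without the second hypoxic library) to 1.60 with 1 left out. Tet1 was 0.20 in limma-voom and -0.94 to 1.69 with 1 left out (0.092 without the first hypoxic library). In normoxia against the embryo, Tet1 was -0.62 to 1.92 with 1 library left out and Mbd2 -0.20 under scaling by library totals. In hypoxia against the embryo, Dnmt1 was -0.36 under scaling by library totals, and Dnmt3b was -1.18 in limma-voom and -5.95 to 2.76 with 1 library left out. In E15 against E13, Tet2 was -0.34 to 0.017 with 1 library left out. Of the other single-gene values, 523 kept their direction and side of the threshold, 27 passed it and 14 no longer did.

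Libraries of equal replicate number showed little correlation in their deviations from the group means, at -0.0444 to 0.0137 over 6 pairs of groups. These values cannot exclude pairing, since replicates of the P12 groups diverged for many genes. Whether libraries of equal number were prepared together was not tested. The second hypoxic library held 2 counts of Dnmt3b in a total of 42322568, and the first held 965 in 37619289. The second also had the fewest genes reaching 10 counts, 11695, against 12785 in the first. The cause of the uneven Dnmt3b counts was not tested.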
